A study of Homo sapiens with 15 samples.

Results

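The genes described here are the replication-dependent histone genes and 3 genes of their regulation, NPAT, SLBP and CASP8AP2, in RPE1-hTERT cells, an established line of human retinal pigment epithelium immortalized with telomerase. Histone genes were taken by name, as every gene named HIST1H, HIST2H, HIST3H or HIST4H whose TPM (a transcript abundance scaled for transcript length and library total) averaged 0.5 or more across the 15 libraries. Of 89 such names 44 passed, 17 of the other 45 were listed at 0 TPM in every library, and the 44 with the 3 regulators made 47 members among 60558 genes. Just inside the threshold stood HIST2H3D at 0.558 TPM and just outside it HIST2H2AB at 0.498 TPM. Cells of every group, controls included, carried a CCNE1 cDNA under doxycycline control on the pINDUCER20 lentivirus, and the study derived such lines from single cells. Whether all libraries come from the same clone is not stated in the sources used here. Each group had 3 libraries, from cultures that the study started weeks apart. Control cells received no doxycycline. All induced cells received 20 ng/ml doxycycline, acute cells for 2 d, crisis cells, harvested during a slowdown of proliferation, for 15, 18 and 18 d, and adapted cells for 39, 41 and 51 d. Recovery cells grew for 31, 42 and 46 d with doxycycline and then for 18, 46 and 17 d after its removal. The comparisons ask how far transcripts of this gene family followed cyclin E1 up, through crisis and adaptation, and back down. The 4 comparisons with control share its 3 libraries.

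Replication-dependent histone genes supply the core histones H2A, H2B, H3 and H4 and the linker histone H1 during S phase, when new DNA is packaged. Most lie in clusters, have no introns, and make mRNAs that end without a poly(A) tail, at a stem-loop held by the stem-loop binding protein SLBP. NPAT is a coactivator of these genes and a substrate of cyclin E with its kinase CDK2, while CASP8AP2, also called FLASH, acts in cleavage of the histone 3′ end. Cyclin E and CDK2 are thereby known regulators of this family.

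The stem-loop was read from the hg38 genome, downstream of the stop codon where one is annotated. It is shown for 12 members, with at least 1 of each form found. The levels below turn on these members, except HIST1H3E, which is shown only for its form. Capitals mark the 16 bases of stem and loop, lower case the 5 bases on either side, and each line is written 5′ to 3′ on the strand of the gene.
HIST1H1C, chr6:26055739-26055764, minus strand: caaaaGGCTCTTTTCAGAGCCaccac
HIST1H2AL, chr6:27865773-27865798, plus strand: acaacGGCTCTTTTCAGAGCCaccta
HIST1H3C, chr6:26045844-26045869, plus strand: gaaaaGGCTCTTTTCAGAGCCactca
HIST2H2AA4, chr1:149851569-149851594, plus strand: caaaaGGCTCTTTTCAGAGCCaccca
HIST1H3E, chr6:26225591-26225616, plus strand: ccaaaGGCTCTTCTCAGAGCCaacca
HIST1H2BK, chr6:27146361-27146386, minus strand: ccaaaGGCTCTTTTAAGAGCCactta
HIST1H2AG, chr6:27133510-27133535, plus strand: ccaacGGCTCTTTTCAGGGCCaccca
HIST2H2AC, chr1:149887386-149887411, plus strand: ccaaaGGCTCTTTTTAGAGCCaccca
HIST1H4C, chr6:26104312-26104337, plus strand: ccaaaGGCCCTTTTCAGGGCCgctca
HIST1H4J, chr6:27824454-27824479, plus strand: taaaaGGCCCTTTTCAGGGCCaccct
HIST1H4K, chr6:27831173-27831198, minus strand: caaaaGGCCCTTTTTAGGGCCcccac
HIST2H4A, chr1:149833027-149833052, plus strand: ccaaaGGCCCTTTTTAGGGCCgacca

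All 44 histone members held such a stem-loop. In the 42 members with an annotated coding sequence it lay in the 3′ UTR, beginning 22 to 67 bases after the stop codon. HIST2H2BC and HIST2H2BD are annotated as pseudogenes, without an annotated stop codon or 3′ UTR. The form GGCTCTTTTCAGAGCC was found in 23 members, comprising 3 of H1, 10 of H2A, 6 of H2B and 4 of H3. Every H4 member had one of the forms that open with GGCCC, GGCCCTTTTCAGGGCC in 8 and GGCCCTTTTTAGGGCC in 4. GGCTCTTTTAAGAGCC occurred in 4 H2B members, HIST1H2BC, HIST1H2BD, HIST1H2BJ and HIST1H2BK. By position, 32 members lie in the HIST1 cluster on chromosome 6, 10 in HIST2 and 1 in HIST3 on chromosome 1, and 1, HIST4H4, on chromosome 12. In GENCODE release 44, 16 members have a transcript that runs more than 50 bases past the stem-loop and 28 do not.

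The libraries were made with a kit for mRNA, so the levels below are those of RNA captured by it. In each library 26841 to 28725 genes were above 0 TPM, and TPM keeps no record of depth, so neither counting intervals nor detection limits can be given. Changes were tested with limma on log2(TPM + 1), a scale that understates the change of genes near 0 TPM, and a change was called where the p adjusted by Benjamini-Hochberg was under 0.01. The first fit held 10196 genes averaging 5 TPM or more, of which 7 are members, and the wider fit 16311 genes averaging 0.5 TPM or more, which include all 47. Of retinal pigment epithelium markers, MITF spanned 13.8 to 26.1 TPM and OTX2 13.2 to 19.1 TPM, but RPE65, a defining one, was listed at 0 in every library and TYR and RLBP1 reached at most 0.11 and 0.16 TPM. Markers of leukocytes, endothelium and other epithelia (PTPRC, CD3E, PECAM1 and EPCAM) summed to 0.05 to 1.06 TPM. The libraries differed in how expression followed GC content, with a Spearman's rho across 10186 genes of 0.69, 0.58 and −0.13 in control libraries and −0.27, −0.45 and −0.47 in recovery libraries. This touches histone genes, whose median GC content was 56.3% against 47.4% for all genes of at least 0.5 TPM. GC-corrected values are given for NPAT, CASP8AP2 and HIST1H1C in some comparisons. They are also given for counts of histone genes in adapted and recovery cells and for the median in recovery cells. Differences of other single genes, summed TPM and the gene lists below are given without the correction.

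CCNE1, which encodes cyclin E1, was at 7.09, 6.27 and 7.88 TPM in the control libraries and at 163, 154 and 136 TPM in the acute ones. It was at 44.9, 32.9 and 38.9 TPM in crisis, 43.3, 42.6 and 42.6 TPM in adapted, and 5.52, 5.49 and 5.93 TPM in recovery libraries. The induced groups therefore stood clear of both groups without doxycycline. By limma, CCNE1 rose by 4.24 ± 0.11 (SE) on the log2 scale in acute cells. CDK2, its kinase partner, averaged 55.2 to 61.6 TPM in the 5 groups and was not called in any comparison.

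NPAT (chromosome 11, 108157215 to 108222638, minus strand) was at 7.42, 7.91 and 7.87 TPM in control and 9.56, 7.41 and 10.2 TPM in acute libraries. In crisis it was at 8.56, 8.06 and 12.5 TPM, in adapted cells at 7.04, 10.1 and 7.82 TPM and in recovery cells at 7.11, 9.04 and 9.61 TPM. The crisis libraries all lay above the control libraries, 2 of them by little, and every other group overlapped control. Against control, NPAT differed on the log2(TPM + 1) scale by 0.19 ± 0.17 (SE) in the acute group, 0.27 ± 0.17 in crisis, 0.08 ± 0.17 after adaptation and 0.13 ± 0.17 after recovery, with adjusted p-values by limma of 0.703, 0.542, 0.790 and 0.632. After GC correction the differences in adapted and recovery cells were −0.081 and −0.062. With CCNE1 at 136 to 163 TPM, no change of NPAT mRNA was called.

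SLBP (chromosome 4, 1692731 to 1712344, minus strand) was the most abundant of the 3 regulators, at 78.9, 92.1 and 87.4 TPM in control and 63.6, 76.0 and 79.4 TPM in acute libraries. It was at 77.5, 78.8 and 81.5 TPM in crisis, 75.3, 77.5 and 74.9 TPM in adapted and 85.1, 80.6 and 80.0 TPM in recovery libraries. All adapted libraries were below all control libraries, and 2 of 3 acute libraries were. Against control the difference was −0.24 ± 0.09 (SE) in the acute group, −0.12 ± 0.09 in crisis, −0.18 ± 0.09 after adaptation and −0.07 ± 0.09 after recovery. The difference in acute cells had an unadjusted p of 0.0138 and an adjusted p of 0.461 by limma, so it was not called.

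CASP8AP2 (chromosome 6, 89829894 to 89874436, plus strand) was at 6.77, 6.65 and 8.26 TPM in control and 9.0, 7.28 and 6.72 TPM in acute libraries. In crisis it was at 6.74, 7.87 and 9.68 TPM, in adapted cells at 7.37, 7.62 and 8.44 TPM, and in recovery cells at 8.67, 8.22 and 8.36 TPM. Each group overlapped control. Differences from control ran from 0.07 in acute to 0.20 ± 0.14 (SE) in recovery cells, with a lowest adjusted p by limma of 0.331. In acute and adapted cells they were −0.026 and −0.063 after GC correction.

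**Figure D1:**
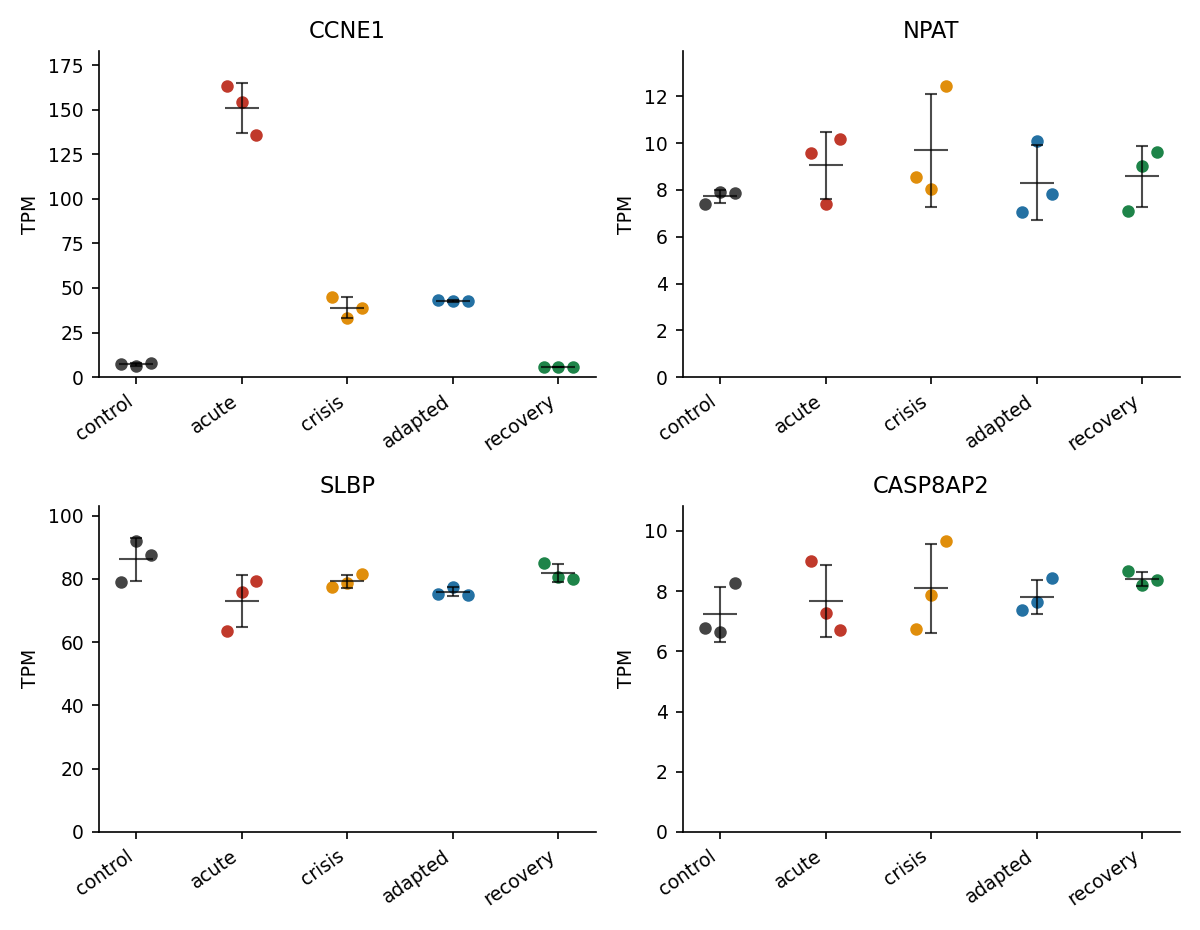
TPM of CCNE1, NPAT, SLBP and CASP8AP2 in each library (points) by group, with the group mean (horizontal bar) and SD (n = 3). CCNE1 is at 136 to 163 TPM in acute libraries against 6.27 to 7.88 TPM in control, while the points of the other genes overlap between most groups.

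Histone transcripts were scarce in these libraries. Only 4 of the 44 members averaged at least 5 TPM, and the median member averaged 1.51 TPM. HIST1H1C, a linker histone gene, was highest, at 17.8, 19.0 and 16.3 TPM in control, 19.2, 14.5 and 17.3 TPM in acute, 15.2, 19.7 and 14.4 TPM in crisis, 14.9, 16.5 and 18.8 TPM in adapted, and 18.9, 16.5 and 15.4 TPM in recovery libraries. No group stood apart from another. HIST1H2BK, an H2B gene, came next, at 14.5, 16.9 and 18.6 TPM in control, 9.26, 11 and 16.7 TPM in acute, 18.9, 15.6 and 13.6 TPM in crisis, 13.8, 15.7 and 11.7 TPM in adapted, and 14.4, 16.8 and 20.4 TPM in recovery libraries. Acute libraries 1 and 2 were the lowest of all 15 for this gene. The ranges of HIST1H1C and HIST1H2BK overlapped. Below them HIST2H2AA4 averaged 6.64 TPM and HIST1H1E, another H1 gene, 6.31 TPM, with single libraries from 0 to 13.1 TPM and from 3.54 to 9.97 TPM.

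Of the 12 histone genes with the highest means, the others were 4 H2A genes, HIST3H2A at 4.76, HIST1H2AM at 4.41, HIST1H2AC at 3.65 and HIST2H2AC at 3.30 TPM, 3 H2B genes, HIST1H2BD at 3.97, HIST1H2BJ at 2.97 and HIST1H2BC at 2.47 TPM, and HIST2H2AA3 at 2.64 TPM, the last treated below with its copy. Neighbours in this order were within each other's range over the libraries. By histone type, the 12 H2B members held 32.3% of the summed histone TPM, the 12 H2A members 29.2%, the 3 H1 members 21.4%, the 12 H4 members 12.8% and the 5 H3 members 4.29%. Replicates of these low genes scattered widely. The median coefficient of variation within groups was 37.3% for the 40 members under 5 TPM, against 27.3% for the 6115 genes of 0.5 to 5 TPM, and 12 members fell below 0.01 TPM in at least 1 library.

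Summed over the 44 genes, histone TPM was 129, 129 and 113 in control libraries and 147, 120 and 112 in acute ones. The sum was 119, 111 and 95.4 TPM in crisis, 117, 100 and 108 TPM in adapted, and 108, 106 and 99.6 TPM in recovery libraries. Every recovery library was below every control library, and the other groups overlapped control. Acute library 1 had the highest sum. It also held the most RNA from genes of other transcripts made without a poly(A) tail: RN7SK, RMRP, RPPH1, RN7SL1, RN7SL2 and 9 others summed to 604 TPM there and to 134 to 384 TPM in the other 14 libraries. The part of that RNA in the histone sum was not tested.

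Of the 5 types, the H2A sum had the lowest ratio of recovery to control. It was 42.5, 41.5 and 33.7 TPM in control, 45.1, 36.9 and 32.9 TPM in acute, 34.0, 31.8 and 27.1 TPM in crisis, 30.6, 29.7 and 31.6 TPM in adapted and 28.9, 27.9 and 25.9 TPM in recovery libraries. Adapted and recovery libraries all lay below all control libraries, and the mean in recovery was 0.703 times that of control. The H1 sum ran from 23.3 to 26.6 TPM over control libraries and from 20.0 to 26.0 TPM over recovery libraries. H2B sums were 37.2 to 42.3 and 36.0 to 37.4 TPM, and H4 sums 11.6 to 17.5 and 11.5 to 14.1 TPM, so these 3 types overlapped between the groups. The H3 sum ran from 4.26 to 5.20 TPM over control, 5.27 to 5.88 TPM over adapted and 2.81 to 4.86 TPM over recovery libraries. Adapted cells thus stood above both other groups in H3, over control by little, while they stood below control in H2A. None of these sums is GC-corrected.

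**Figure D2:**
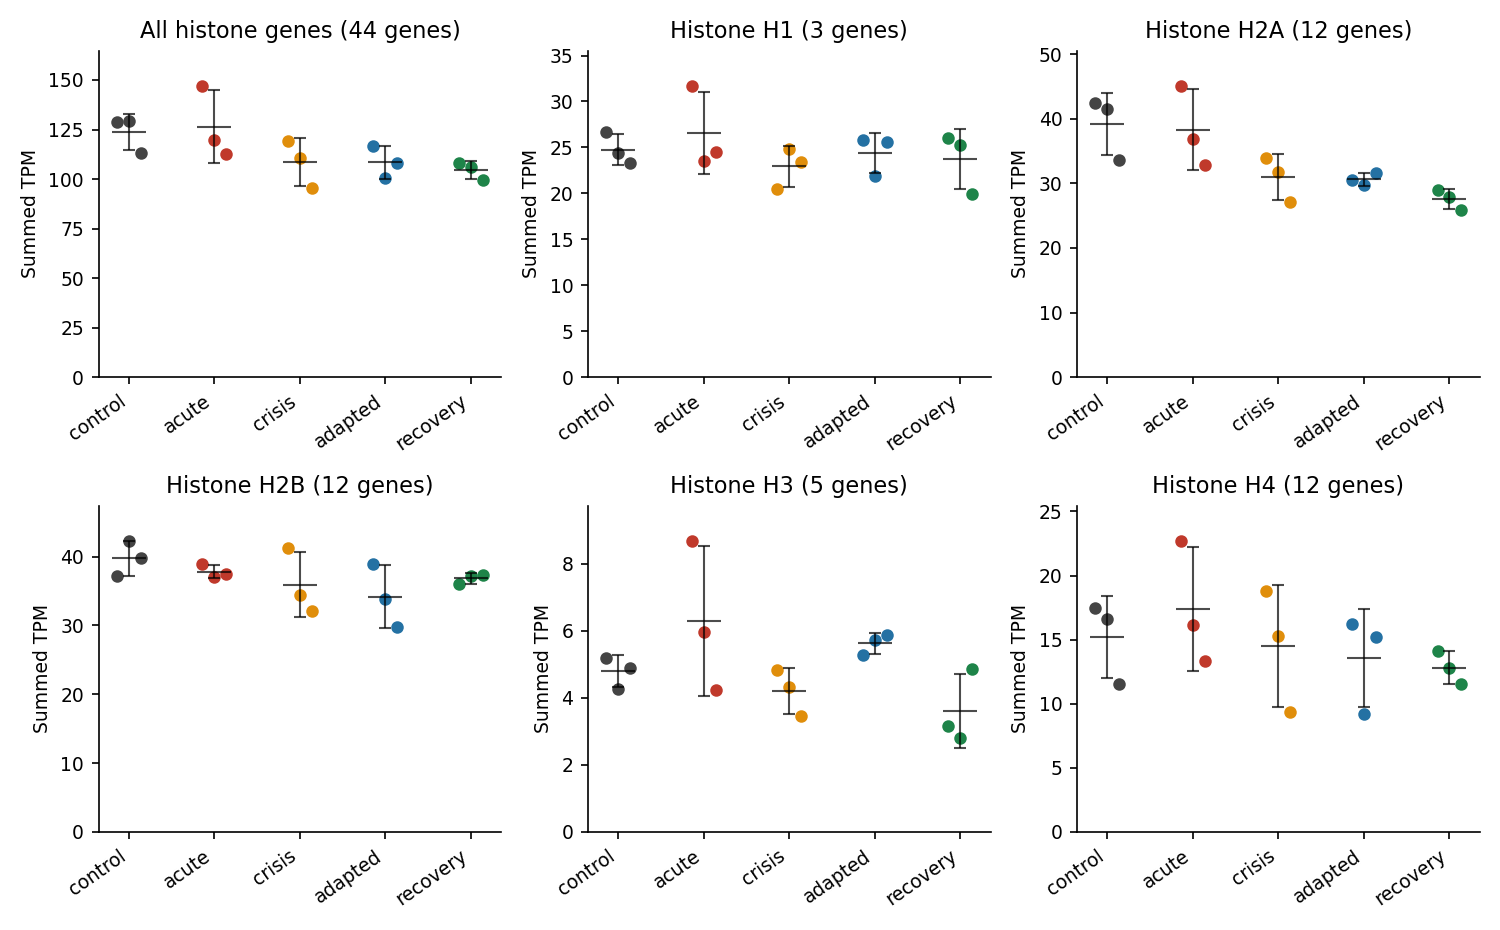
Summed TPM of all 44 histone genes and of each histone type in each library (points), with the group mean (horizontal bar) and SD (n = 3), each axis from 0. The H2A sum spans 33.7 to 42.5 TPM over control and 25.9 to 28.9 TPM over recovery libraries, while the H1, H2B and H4 sums overlap between these groups.

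In acute cells, with CCNE1 at its highest, 25 histone genes were higher and 19 lower than in control, with a median difference of 0.05 on the log2(TPM + 1) scale. Over all 16311 genes the median was 0.06 and 64.0% were higher. Without acute library 1 the histone median was −0.05, so 1 library set its sign. By limma at an adjusted p under 0.01, 0 of 7 members were called, with 0.049% of the 10196 genes called, and 0 of 47 members in the wider fit, with 0.0429% of all genes called. With p unadjusted and under 0.05, the first fit had 0 members higher (background 7.52%) and 2 lower (background 1.67%), and the wider fit 3 members higher (background 6.54%) and 2 lower (background 1.77%).

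The members with the smallest p in acute cells were SLBP, HIST1H4J, HIST1H1B and HIST1H2BK. HIST1H1B, a linker histone gene, was at 0.963, 0.970 and 0.599 TPM in control and 2.52, 1.25 and 1.33 TPM in acute libraries. All acute libraries were above all control libraries, and the difference was 0.53 ± 0.20 (SE), with an adjusted p by limma of 0.528. HIST1H2BK differed by −0.44 ± 0.18 (SE), with an adjusted p of 0.514 by limma in the first fit and overlapping groups. The groups did not overlap in 2 histone genes with higher values, HIST1H1B and HIST1H4J, against 9.26% of all genes, and in 1 with lower values, HIST1H2BO, against 2.9% of all genes (HIST1H2BO was chosen after its values were seen). HIST1H4J summed with its near-identical copy HIST1H4K overlapped, at 2.97, 1.34 and 0 TPM in control and 2.09, 1.72 and 2.73 TPM in acute libraries.

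In crisis cells 16 histone genes were higher and 28 lower than in control, with a median of −0.10 against 0.07 for all genes. Limma called 0 of 7 members, with 0.0392% of genes called, and 0 of 47 in the wider fit, with 0.0307% of genes called. The first fit had, at an unadjusted p under 0.05, 0 members higher (background 9.32%) and 0 lower (background 1.83%), and the wider fit 1 member higher (background 8.01%) and 2 lower (background 2.35%). HIST1H2AL, an H2A gene, passed the threshold of 0.5 TPM only through the control and acute groups. It was at 1.5, 2.11 and 0.744 TPM in control and at 0.323, 0.287 and 0.338 TPM in crisis libraries. HIST1H3C, an H3 gene, was at 1.79, 2.02 and 1.67 TPM in control and at 1.20, 0.643 and 0.758 TPM in crisis libraries. Neither gene overlapped between the groups. The differences were −0.86 ± 0.26 (SE) and −0.61 ± 0.19, with adjusted p-values by limma of 0.298 and 0.304. The 4 smallest p-values also included those of HIST1H4J and of HIST1H2BE, an H2B gene at 0.392, 0.218 and 0.588 TPM in control and 0.685, 1.58 and 0.441 TPM in crisis libraries. Groups did not overlap in 3 histone genes with lower values, HIST1H2AL, HIST1H3C and HIST1H2BN (the last chosen after its values were seen), against 3.53% of all genes, and in 1 with higher values, HIST1H4J, against 11.8%. Summed with its near-identical copy HIST1H4K, HIST1H4J overlapped between these groups. With the median-of-ratios and protein-coding rescalings 3 genes were again lower, against 7.04% and 7.48% of all genes. Both had 1 gene higher, against 6.16% and 5.88%.

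In adapted cells 15 histone genes were higher and 29 lower than in control, with a median of −0.04 against 0.04 for all genes. After GC correction 21 were higher and 23 lower. Limma called 0 of 7 members, with 0.049% of genes called, and 0 of 47 in the wider fit, with 0.0307% of genes called. Before adjustment, at p under 0.05, the first fit had 0 members higher (background 11.4%) and 0 lower (background 9.01%), and the wider fit 2 members higher (background 9.11%) and 8 lower (background 7.96%). HIST1H2AL was at 0.330, 0.701 and 0 TPM in adapted libraries, all below control, a difference of −0.86 ± 0.26 (SE) with an adjusted p by limma of 0.136. The other 3 of the 4 smallest p-values, those of HIST1H4K, HIST1H4J and HIST2H4A, belonged to genes with near-identical copies. HIST2H2AC, among the 12 highest, was at 4.26, 5.36 and 4.77 TPM in control and 3.23, 3.29 and 0 TPM in adapted libraries, again without overlap.

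Groups did not overlap in 6 histone genes with lower values in adapted cells, against 9.66% of all genes, comprising the H2A genes HIST1H2AL, HIST1H2AM, HIST2H2AC and HIST3H2A, the H3 gene HIST1H3C and the H4 gene HIST2H4A. HIST3H2A, from the single-member cluster on chromosome 1, was at 5.84, 5.96 and 4.77 TPM in control and 3.59, 3.41 and 4.60 TPM in adapted libraries. They did not overlap in 4 genes with higher values, against 11.6% of all genes, comprising the H1 gene HIST1H1B, the H2A gene HIST1H2AD and the H3 genes HIST1H3B and HIST1H3H (HIST1H2AD and HIST1H3H chosen after their values were seen). Single H2A and H3 genes thus lay on both sides. The 6 lower genes are 13.6% of the 44 and the 4 higher ones 9.09%, near the shares of all genes. After GC correction 4 were lower, against 7.58% of all genes, and 5 higher, against 9.71%, so neither direction stood out. HIST1H3B, an H3 gene among the 4 higher ones before correction, was at 0.946, 0.761 and 1.18 TPM in control and 1.88, 1.99 and 1.89 TPM in adapted libraries.

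In recovery cells, with CCNE1 back at 5.49 to 5.93 TPM, the summed histone TPM and the median difference from control were the lowest of the 4 groups compared with control, although crisis library 3 had the lowest single sum and the mean H1 and H2B sums were lowest in crisis and adapted cells. Of the 44, 14 were higher and 30 lower than in control, with a median of −0.17, while the median of all genes was 0.07 and 38.3% of all genes were lower. The SD of a library's histone median within groups was 0.147. After GC correction the median was −0.07 against 0.06 for all genes, with 24 of 44 lower, so the histone median moved by more than 1.5-fold with the correction. Limma called 0 of 7 members, with 0.0392% of genes called, and 0 of 47 in the wider fit, with 0.00613% of genes called. Unadjusted p-values under 0.05 were found in the first fit for 0 members higher (background 19.7%) and 0 lower (background 8.88%), and in the wider fit for 1 member higher (background 14.7%) and 6 lower (background 6.78%). Groups did not overlap in 11 histone genes with lower values, which is 25.0% of the 44 against 8.56% of all genes, and in 1 with higher values, HIST1H1B, against 15.8%. Of the 11, HIST1H2AL and HIST4H4 averaged 0.5 TPM or more only in control and acute cells. The filter on the mean of all libraries thus favoured lower recovery values in these genes. After GC correction 9 histone genes were lower without overlap, against 5.51% of all genes, and 2 higher, against 13.7%. Differences of single genes below are not GC-corrected, and which genes kept their separation is not given. With the median-of-ratios rescaling 12 were lower without overlap, against 11.8% of all genes, and 0 higher, against 10.7%. With the protein-coding rescaling 12 were lower, against 11.9%, and 0 higher, against 10.5%.

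These 11 genes included 5 of the 12 H2A members. HIST1H2AL was listed at 0 TPM in all 3 recovery libraries, against 0.744 to 2.11 TPM in control. It passed the threshold of 0.5 TPM only through the control and acute groups, so the filter favoured a lower level here. Its difference of −1.25 ± 0.26 (SE), which depends on the 1 TPM added before taking logs, had an adjusted p of 0.0575 by limma. HIST1H2AM was at 7.78, 6.34 and 4.09 TPM in control and 3.25, 3.62 and 2.53 TPM in recovery libraries, and differed by −0.75 ± 0.26. HIST1H2AH was at 3.09, 3.74 and 1.53 TPM in control and 1.52, 1.15 and 0 TPM in recovery libraries, and differed by −1.06 ± 0.43. Their adjusted p-values by limma were 0.141 and 0.181, and the groups of HIST1H2AH stood apart by little. HIST2H2AC was at 3.50, 2.26 and 0.855 TPM in recovery libraries, below its 4.26 TPM or more in control.

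HIST1H3C was at 0.880, 0.623 and 0.755 TPM in recovery libraries, against 1.67 to 2.02 TPM in control. With a difference of −0.69 ± 0.19 (SE) and an adjusted p of 0.0930 by limma, it had the second smallest p of the family. HIST1H4C, an H4 gene, was at 1.97, 2.48 and 1.53 TPM in control and 1.21, 1.14 and 1.04 TPM in recovery libraries. This gene too was lower without overlap, by −0.48 ± 0.20. The most abundant genes did not follow: HIST1H1C differed by −0.06 ± 0.13 and HIST1H2BK by 0.04 ± 0.18 in recovery cells, with overlapping groups.

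**Figure D3:**
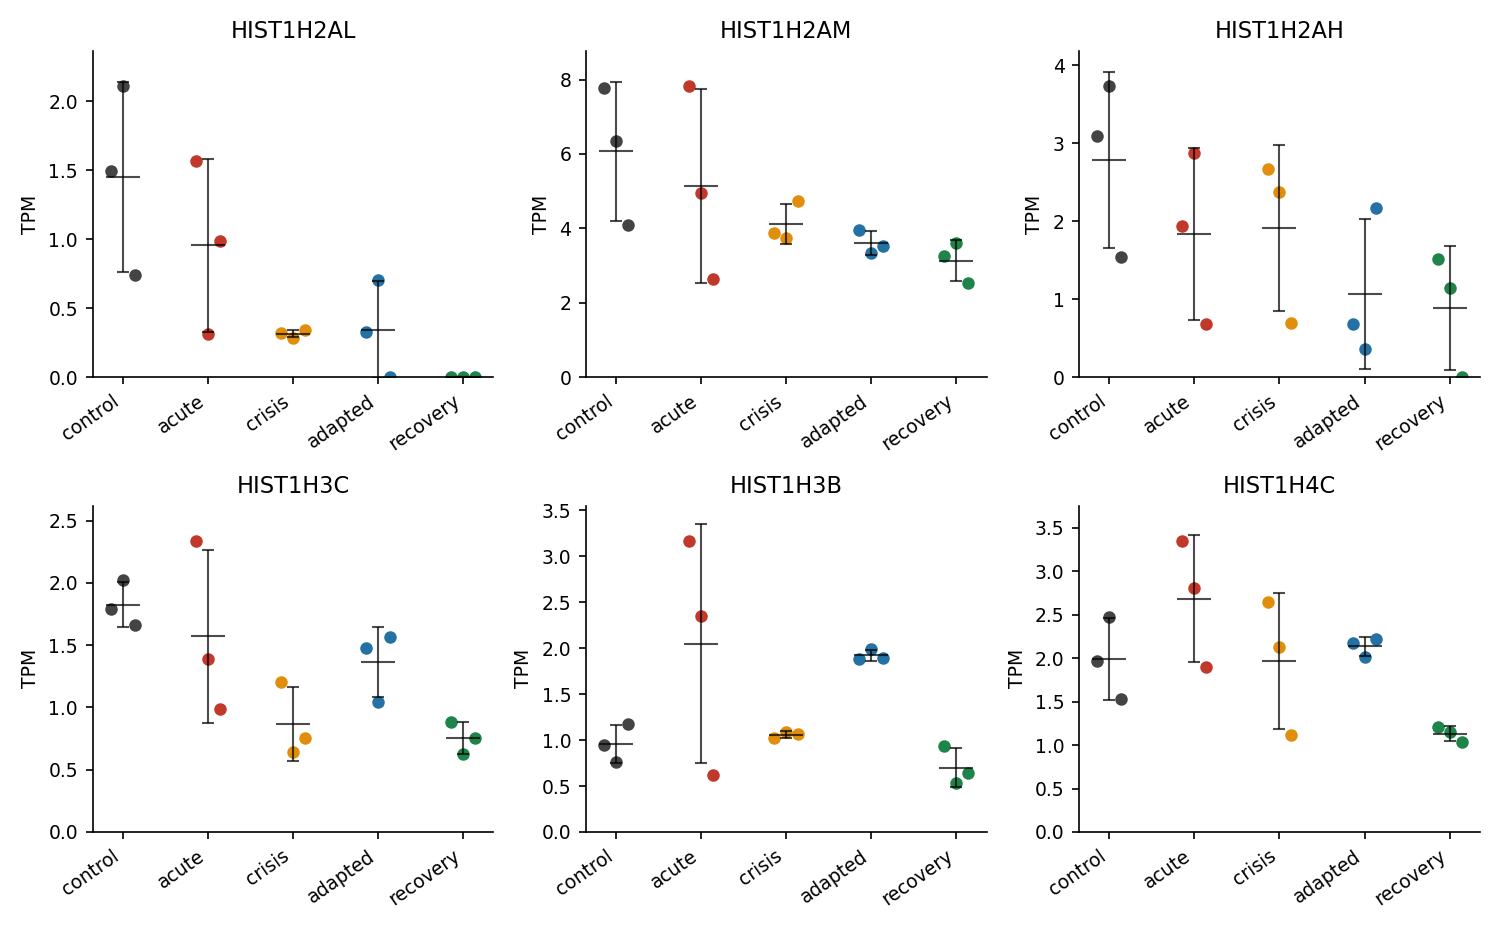
TPM of 6 histone genes from among the 4 with the smallest p in recovery vs control and in recovery vs adapted, in each library (points) by group, with the group mean (horizontal bar) and SD (n = 3), each axis from 0. HIST1H2AL, which passed the threshold of 0.5 TPM only through the control and acute groups, is at 0 in all recovery libraries. HIST1H3B spans 1.88 to 1.99 TPM over adapted and 0.528 to 0.932 TPM over recovery libraries.

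Adapted and acute cells both had doxycycline, for 39 to 51 d and 2 d. Of the histone genes, 14 were higher and 30 lower in adapted cells, with a median of −0.12 against −0.03 for all genes. Limma called 0 of 7 members, with 0.0196% of genes called, and 0 of 47 in the wider fit, with 0.0123% of genes called. Without adjustment the first fit had 0 members higher (background 1.36%) and 0 lower (background 4.89%) at p under 0.05, and the wider fit 1 member higher (background 1.58%) and 3 lower (background 4.86%). HIST1H2BL, an H2B gene, was at 2.53, 1.46 and 2.02 TPM in acute and 1.78, 0.469 and 0.201 TPM in adapted libraries. Its groups overlapped, and it differed by −0.81 ± 0.28 (SE) with an adjusted p of 0.619 by limma. The other 3 of the smallest p-values were again those of HIST1H4J, HIST2H4A and HIST1H4K. Groups did not overlap in 1 histone gene with higher values, HIST1H4K (background 3.42%), and in 4 with lower values, HIST1H4J, HIST2H4A, HIST1H2BJ and HIST2H2BD (background 8.37%, HIST2H2BD chosen after its values were seen).

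Between adapted and recovery cells, when doxycycline was withdrawn, 18 histone genes were higher and 26 lower, with a median of −0.07 against 0.03 for all genes. Limma called 0 of 7 members, with 0.0294% of genes called, and 0 of 47 in the wider fit, with 0.0184% of genes called. Counting unadjusted p-values under 0.05, the first fit had 0 members higher (background 4.98%) and 0 lower (background 2.06%), and the wider fit 1 member higher (background 4.85%) and 5 lower (background 1.95%). HIST1H3B went from 1.88, 1.99 and 1.89 TPM to 0.932, 0.528 and 0.640 TPM, and HIST1H4C from 2.17, 2.01 and 2.22 TPM to 1.21, 1.14 and 1.04 TPM. HIST1H2AG, an H2A gene, went from 1.92, 1.83 and 1.41 TPM to 1.1, 0.909 and 1.04 TPM. None of the 3 overlapped. The differences were −0.79 ± 0.25 (SE), −0.56 ± 0.20 and −0.43 ± 0.14, with adjusted p-values by limma of 0.503, 0.559 and 0.537. With HIST1H3C and HIST2H2BF (the latter chosen after its values were seen) they made 5 histone genes lower without overlap, against 3.68% of all genes, and 0 were higher, against 8.53%. The median-of-ratios and protein-coding rescalings also gave 5 lower, against 6.46% and 5.68%, and 0 higher, against 6.93% and 7.52%. HIST2H4A went the other way, from 0.390, 0.754 and 0.486 TPM to 1.41, 2.17 and 0.614 TPM, with overlap. Summed with its near-identical copy HIST2H4B, the level went from 2.07, 0.978 and 2.24 TPM to 2.83, 2.67 and 2.28 TPM. That sum was higher in recovery cells without overlap, though by little.

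Across all 5 groups, limma's F test called 7 of 10196 genes (0.0687%) and 7 of 16311 genes (0.0429%), and none of them was a member. The smallest F-test adjusted p of the family was 0.0614, for HIST1H4J.

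**Figure D4:**
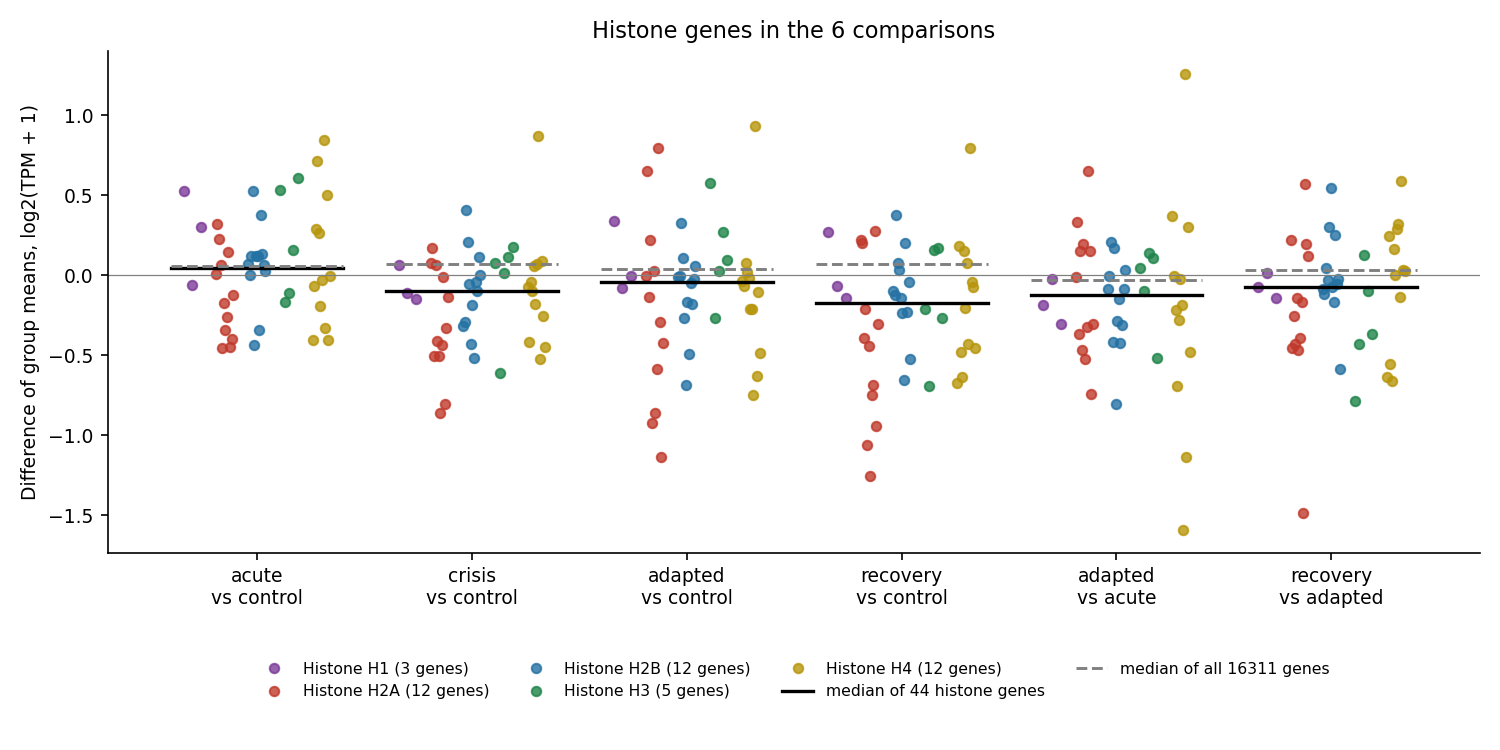
Difference of group means on the log2(TPM + 1) scale for each of the 44 histone genes (points, coloured by histone type) in the 6 comparisons, with the median of the 44 (solid line) and of all 16311 genes (dashed line). The solid line lies at −0.17 and the dashed one at 0.07 in recovery vs control, and both lie close to 0.05 in acute vs control.

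Several of the largest single differences involved copies that short reads cannot tell apart. Of all windows of 75 bases, the read length of the sequencing kit, 100% in HIST2H2AA3 also occur in HIST2H2AA4, 91.4% of those in HIST1H4J occur in HIST1H4K, and 96.2% of those in HIST2H4A occur in HIST2H4B. HIST1H4J was at 1.02, 1.34 and 0 TPM in control, 2.09, 1.72 and 2.24 TPM in acute, 2.87, 1.6 and 1.88 TPM in crisis, 0, 0 and 0 TPM in adapted, and 0, 0.946 and 0 TPM in recovery libraries. Its copy HIST1H4K ran the other way, at 1.96, 0 and 0 TPM in control, 0, 0 and 0.490 TPM in acute, 0 in all 3 crisis, 2.19, 1.16 and 1.98 TPM in adapted, and 1.46, 1.36 and 1.68 TPM in recovery libraries. Between acute and adapted cells HIST1H4J differed by −1.59 ± 0.30 (SE) and HIST1H4K by 1.26 ± 0.33, with adjusted p-values by limma of 0.0817 and 0.310. Their sum was 2.09, 1.72 and 2.73 TPM in acute and 2.19, 1.16 and 1.98 TPM in adapted libraries, which overlap. Changes of either gene alone are therefore uncertain.

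HIST2H2AA4 was listed at 0 TPM in acute library 2 and crisis library 2, where HIST2H2AA3 was at 11 and 7.64 TPM, and HIST2H2AA3 was below 0.01 TPM in 9 libraries. Together they held 7.59 to 13.1 TPM in every library, with a mean of 9.41 TPM for control cells, 11.6 for acute, 7.75 for crisis, 9.25 for adapted and 8.44 for recovery cells. HIST2H4A was at 2.70, 2.69 and 1.79 TPM in acute and 0.390, 0.754 and 0.486 TPM in adapted libraries. HIST2H4A and HIST2H4B together were at 3.77, 2.94 and 2.67 TPM in acute and 2.07, 0.978 and 2.24 TPM in adapted libraries, so this pair stayed lower in adapted cells without overlap when summed. Of the other members, HIST1H2AM shares 65.9% of its windows with the H3 gene H3C12. In all, 12 members share more than 50% of their windows with another annotated gene, be it a copy or an overlapping gene, and 20 share none.

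**Figure D5:**
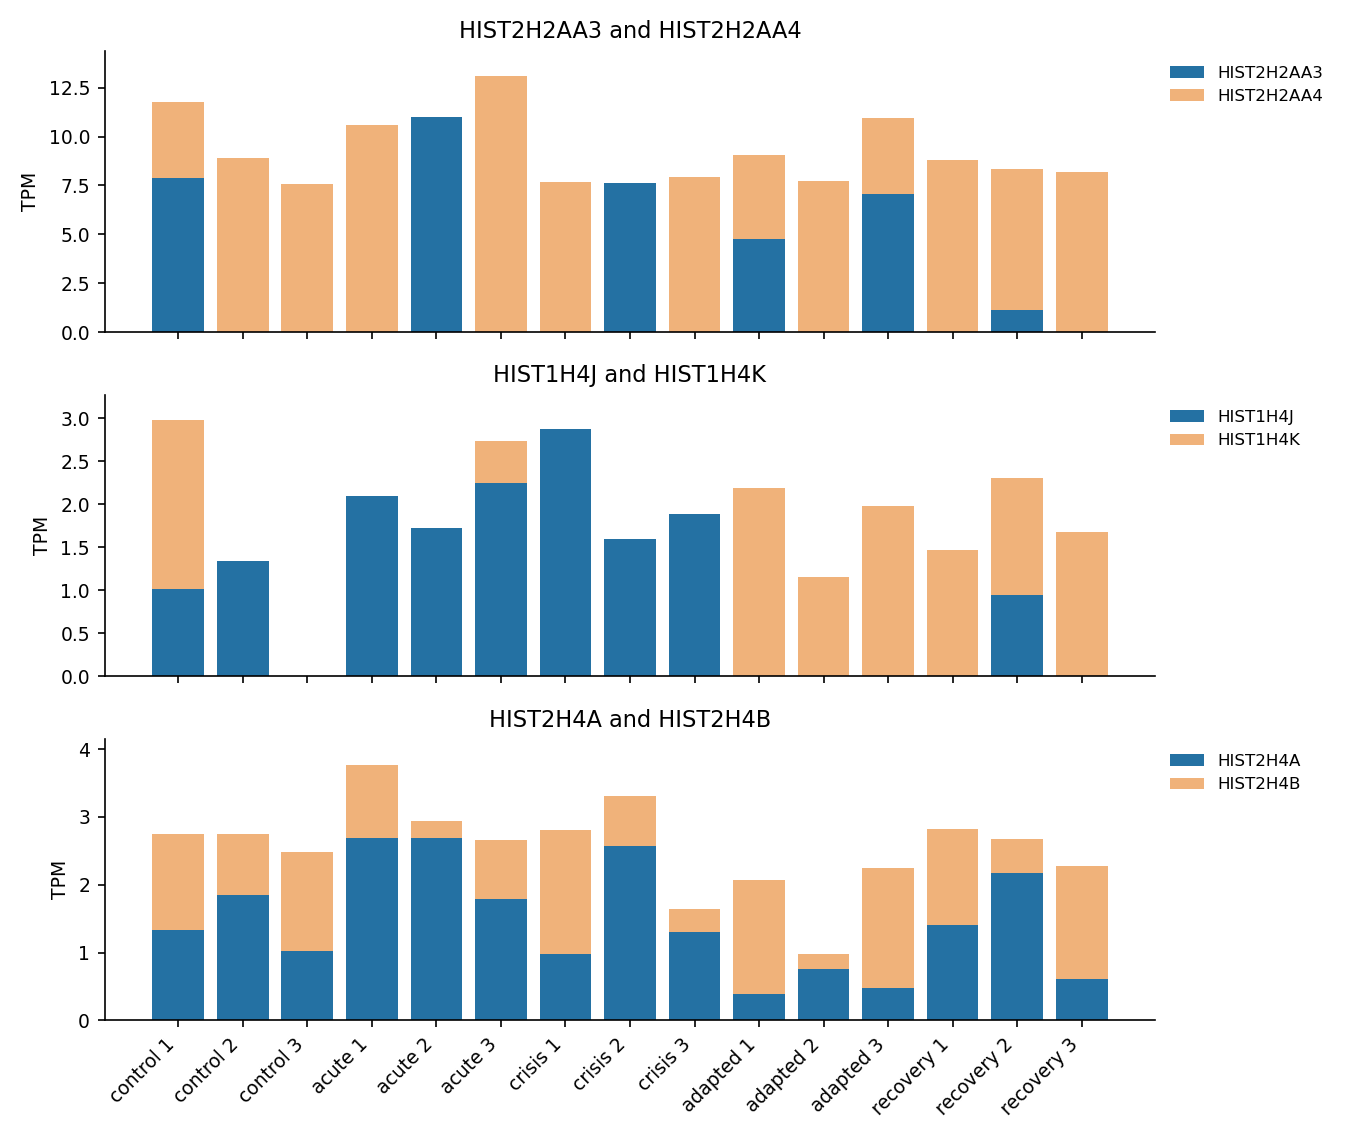
Stacked TPM of 3 pairs of near-identical histone genes in each of the 15 libraries, each axis from 0. HIST1H4J makes up all or most of the bars of the acute and crisis libraries and HIST1H4K all of those of the adapted libraries, while HIST2H2AA3 and HIST2H2AA4 together stay between 7.59 and 13.1 TPM.

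Because the family differs at its 3′ ends, the members were also split by annotated transcripts. The 16 members with a transcript past the stem-loop comprise 8 of 12 H2B, 2 of 12 H2A, 2 of 5 H3 and 4 of 12 H4 genes and none of the 3 H1 genes. The other 28 held 72.2% of the summed histone TPM. In recovery cells the 28 had a median difference from control of −0.25, with 71.4% lower and 28.6% lower without overlap, and the 16 a median of −0.06, with 62.5% lower and 18.8% lower without overlap. Of all 16311 genes 38.3% were lower and 8.56% lower without overlap. The 28 have a median GC content of 58.4% and the 16 of 47.8%, so 3′ end and GC content cannot be told apart in this split. HIST1H2BD, with such a longer transcript, was at 4.13, 4.13 and 4.21 TPM in control and 3.94, 3.67 and 3.61 TPM in recovery libraries, without overlap. HIST1H2AC, also with a longer transcript, was at 3.35, 3.21 and 3.68 TPM in control and 3.31, 3.42 and 6.14 TPM in recovery libraries.

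Promoters were taken from RefSeq on GRCh38.p14, from 250 bases before to 50 after the start, for the 39 of 44 histone members found there. The octamer ATTTGCAT, on either strand, is the element bound by POU2F1 and stood in 7 of 11 H2A and 7 of 10 H2B promoters, in none of the H1, H3 or H4 promoters, and in 1.77% of all 35116 promoters. CCAAT stood in 30 of 39 histone promoters, among them 1 of 10 of H4, and in 34.6% of all. TATAAA stood in 26 of 39 and in 11.5% of all. Of H2A and H2B genes, 8 pairs are transcribed away from each other with 218 to 290 bases between their starts. Mean levels within a pair differed by 1.09-fold for HIST1H2BL and HIST1H2AI up to 8.95-fold for HIST1H2BK and HIST1H2AH. Over the libraries HIST1H2BL spanned 0.201 to 2.53 TPM and HIST1H2AI 0.550 to 2.85 TPM, so these levels cannot be told apart.

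Of 20 genes of 3′ end processing and decay, 19 were tested and none was called in any comparison. At an unadjusted p under 0.05, CPSF3, the cleavage nuclease, was at 0.23 and SLBP at −0.24 in acute cells, where 7.52% of genes were higher and 1.67% lower at that level. In adapted cells these were CPSF3 at 0.22, SRRT at −0.33 and LSM10 at −0.22 (background 11.4% higher and 9.01% lower), and in recovery cells CPSF2 at 0.35, SRRT at −0.28 and SNRPB at −0.31 (background 19.7% and 8.88%). The other 3 comparisons had none. LSM10 and LSM11, subunits particular to the U7 snRNP that directs the cut, averaged 27.6 to 32.3 and 3.21 to 3.69 TPM in the 5 groups. Of 12 genes of histone transcription, 11 were tested and CCNE1 alone was called, higher in the 3 induced groups against control, and lower in adapted vs acute and in recovery vs adapted cells. In recovery cells E2F1, a driver of S phase genes, was at −0.50 with an adjusted p by limma of 0.0547, and YY1 was at 0.26 with 0.0629. Neither value is GC-corrected.

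Histone genes outside the clusters, whose mRNAs mostly have poly(A) tails and are made through the cell cycle, ranged widely in level, with means over all libraries from 0.344 TPM for H1F0 and 13.2 TPM for H2AFY2 to 848 TPM for H2AFZ. None of the 10 tested was called. In recovery cells 8 of the 10 were lower than in control, and H2AFX was at 134, 109 and 97.5 TPM in control and 77.8, 72.5 and 52.0 TPM in recovery libraries, a difference of −0.75 ± 0.16 (SE) with an adjusted p of 0.0345 by limma. H2AFY2, a macroH2A gene, differed by −0.68 in adapted cells with an adjusted p of 0.0128. Of 18 S phase genes none was called. In recovery cells 16 had lower means than in control, with a median of −0.19, while 38.3% of the 16311 genes were lower. Their summed level was 1673 to 1786 TPM over control libraries and 1658.5, 1593 and 1327 TPM over recovery libraries, with recovery library 3 the lowest of all 15. CDT1 and MCM5, which act in origin licensing, differed by −0.72 and −0.56, each with an adjusted p of 0.0403 by limma. These differences, like that of H2AFX, are not GC-corrected. The GC trend had a rho of 0.69 and 0.58 in control libraries 1 and 2 and was negative in every recovery library. Its part in these differences was not tested. The S phase list moved in the same direction as the histone members in recovery cells, and the part of the share of cells in S phase was not tested, since in bulk RNA fewer cells in S phase and less histone RNA per cell cannot be told apart. Of 15 listed RNAs without a poly(A) tail, 4 were tested and none was called. In recovery vs control 3 of the 4 were higher and 1 was lower. The lower one was RN7SK, at 37.0, 26.1 and 58.2 TPM in control and 42.6, 14.5 and 7.89 TPM in recovery libraries. RN7SL2, among the higher ones, averaged 75.5 TPM in control and 123 TPM in recovery cells.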

How the data were processed

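Libraries of 15 cultures were prepared together by the authors with an mRNA kit and sequenced as single-end reads. The authors quantified them with Kallisto on hg38, and the deposited table gives TPM per gene. Sources used here do not give the annotation release or strand setting. Columns of the authors' own comparisons (log2 fold changes and adjusted p-values from DESeq2) were not used. After 45 duplicate pseudoautosomal entries were dropped, 60558 genes remained, of which 60261 matched GENCODE 44 by identifier, and 2 histone genes were matched by RefSeq synonym. TPM, which sums to 999659 to 999726 per library, holds no depth.

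Values were transformed to log2(TPM + 1) and fitted in R 4.3.3 with limma 3.58.1 (trend, 5 groups, 15 libraries, 2-sided, Benjamini-Hochberg, adjusted p under 0.01) over genes averaging 5 TPM or more, and again from 0.5 TPM. The fit was tested on simulated data. Libraries labelled as replicates are treated as independent. Genes named are the 3 regulators, the 12 histone genes with the highest mean, the 4 members with the smallest p in each comparison, and up to 4 genes per list. Members and lists (processing, transcription, histone genes outside the clusters, tailless RNAs, S phase, cell type markers) were chosen with earlier results of these data known. Alternatives were pseudocounts of 0.1 and 5, no filter, 2 rescalings, a GC loess (span 0.3), a replicate block, no trend, a threshold of 0.05, 6 libraries only, each library left out, and summed TPM. Repeats of these at 0.5 TPM and the counts of genes without overlap under other scalings were added after seeing the data.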

Additional observations from a re-analysis of the deposited data

How the results depend on the processing

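No member was called in any of the 6 comparisons under any alternative, each at its own threshold. The lowest adjusted p by limma was 0.0244 in adapted vs acute (only the 6 libraries compared), 0.0273 in adapted vs control (without control library 1) and 0.0288 in recovery vs control (without control library 3). These would be calls at a threshold of 0.05, which was tried in both fits with all other settings as in the main analysis and then called no member. By the log2 ratio of summed TPM the difference of adapted from control cells was −0.19, against a median of −0.04. Leaving out 1 library, the median ran from −0.29 to −0.0094 in adapted vs acute (−0.29 without acute library 3), from −0.13 to −0.02 in adapted, −0.05 to 0.15 in acute, −0.18 to −0.0034 in crisis (the latter without crisis library 3) and −0.21 to −0.10 in recovery vs control, and from −0.20 to 0.01 in recovery vs adapted. Signs turned for values that were never called. With the GC correction, with or without the replicate block, NPAT was at −0.081 in adapted and −0.062 in recovery cells, CASP8AP2 at −0.026 in acute and −0.063 in adapted cells, and HIST1H1C at 0.013 in acute cells. Over the libraries left out in turn, the difference of NPAT, adapted vs control, ran from −0.052 to 0.18, that of CASP8AP2, acute vs control, from −0.035 to 0.16 and that of HIST1H1C, acute vs control, from −0.15 to 0.044. The causes were not tested. With the replicate block alone, the recovery median stayed at −0.17 and no call of a member changed. Deviations of same-numbered libraries correlated between −0.44 and 0.34 (median 0.05, 30 pairs), and those of other pairs between −0.35 and 0.39 (median −0.03, 60 pairs). With 3 libraries a group and GC trends that differ by library, this cannot settle whether the numbers pair the samples. Over all genes, the wider fit called 7 in acute and 1 in recovery cells, against 5 and 4 in the first. Levels near 1 TPM and unknown depth limit what can be seen of most members.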
